A study of Mus musculus with 16 samples.

Results

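Of 37991 mouse genes in the count table, 32 were low on average in fibroblasts before and during 12 days of chemical treatment and were on in neural stem-like lines made from such cells and in cortical controls. The genes were chosen by their levels in CPM, in which counts are scaled so that each library has the same total, after the mitochondrial ribosomal RNA genes mt-Rnr1 and mt-Rnr2 were removed. The group mean had to be under 1 CPM at each of D0, D4, D8 and D12 (D with the day of treatment, D0 being untreated), at least 5 CPM in the lines (ciNSLC), and at least 2 CPM in each of the 2 cortical control libraries. The lines and both controls met their floors for 9978 genes, and 9946 of these were at 1 CPM or more in at least 1 of the 4 day means. Since these levels chose the genes, the difference between the lines and the day groups is described and not tested.

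The limits cut through a continuous range. Just under the day limit stood Gpr179, with a highest day mean of 0.983 CPM, and 4922502B01Rik, with 0.972 CPM, and just over it BC057022 with 1.0 CPM and B230209K01Rik with 1.02 CPM. In the lines Ptprn2 at 5.15 CPM and Slc35f3 at 5.24 CPM were the lowest inside, and Ntsr2 at 4.82 CPM and Foxr2 at 4.76 CPM the nearest outside. For the lower of the 2 controls, Myb at 2.11 CPM and Abhd3 at 2.39 CPM were just inside, and Ankrd34c at 1.98 CPM and 1500009C09Rik at 1.85 CPM just outside.

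Not all of the 32 are neural genes. A total of 8 stood in lists of neural genes: the transcription factors Sox3 and Pou3f2, the glial genes Gpr37l1, Hepacam and Gjc3, the neuronal filament gene Ina, the adhesion gene Mdga2 and the Notch ligand Dll1. Counting gene families too, 13 were in a list, and added the channels Kcnj16 and Kcng1, the plexin Plxnb3, the transporter gene Slc35f3 and the receptor gene Gpr179. A further 15 named genes were in none. Of these, Dpp6, Rims4, Tnr and Lingo3 are known from the nervous system, while Myb is best known from blood progenitors, Dok7 from the junction of nerve and muscle, Tmie from the inner ear and Olfr287 as a member of the olfactory receptor family. The other 4 are predicted or unnamed genes.

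The starting cells were tdMEFs, embryonic fibroblasts of a mixed 129xC57BL6 background in which Fsp1-Cre had switched on the tdTomato reporter at ROSA26, with 2 libraries at D0. Fsp1 is a gene of fibroblasts that some myeloid cells also express, so the mark is not proof of a fibroblast. Treated cells, with 3 libraries each at D4, D8 and D12, were kept at low oxygen in M9, a medium that holds CHIR99021 (which activates Wnt signalling), LDN193189 (against BMP receptors), A83-01 (against TGF-beta receptors), the Hedgehog agonist Hh-Ag1.5, retinoic acid, the autophagy enhancer SMER28, RG108 (against DNA methylation), the LSD1 inhibitor Parnate and the growth factor bFGF. The 3 ciNSLC libraries came from cells grown out after this treatment, on the same 129xC57BL6 background. Their description labels differ: replicate 2 reads ciN_1_P4, replicate 3 reads ciN_2_P2, and replicate 1 bears another name. The labels do not explain whether these are separate lines or passages. The controls were SCR029, a commercial C57BL6 neural stem cell line from cortex of embryonic day 15 to 18, and primary neural progenitors (priNPC) from 129xC57BL6 cortex of embryonic day 13.5, with 1 library each. The description label of priNPC reads tdNPC_FSP, and that label does not explain whether these cells carried the Fsp1-Cre reporter. Replicate 1 of each group and SCR029 formed batch 1 and the other libraries batch 2, per the labels.

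Neural stem cells of the embryonic brain are kept in the progenitor state by transcription factors of the Sox and POU families and by Notch signals that pass between neighbouring cells through Delta ligands. They give rise to neurons, astrocytes and oligodendrocytes. Many neuronal genes are held off outside the nervous system by the repressor REST, which binds a sequence named RE1 near their starts, whereas proneural factors of the basic helix-loop-helix type bind short sequences called E-boxes.

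Counts without mt-Rnr1 and mt-Rnr2 came to 14.5 to 34.6 M (mega) per library, so that 3 counts, the limit a count of 0 allows, correspond to 0.0868 to 0.207 CPM. The 2 rRNA genes had taken 14.3% to 53% of all counts. Summed levels of 9 neural progenitor markers, among them Sox2, Pax6, Nes and Fabp7, were 67.3 to 88.8 CPM at D0 and 5390 to 7030 CPM in ciNSLC, beside 5060 CPM in SCR029 and 5080 CPM in priNPC. Summed levels of 12 fibroblast markers were 32900 to 41400 CPM at D0, 2610 to 14500 CPM at D4 and 3560 to 19900 CPM at D8. They were 12900 to 19400 CPM at D12 and 87.5 to 427 CPM in ciNSLC. The second D0 library stood apart in 12 myeloid markers, with a sum of 5250 CPM against 19.5 CPM in the first. In such bulk libraries a larger share of expressing cells and more RNA per cell cannot be told apart.

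**Figure D1:**
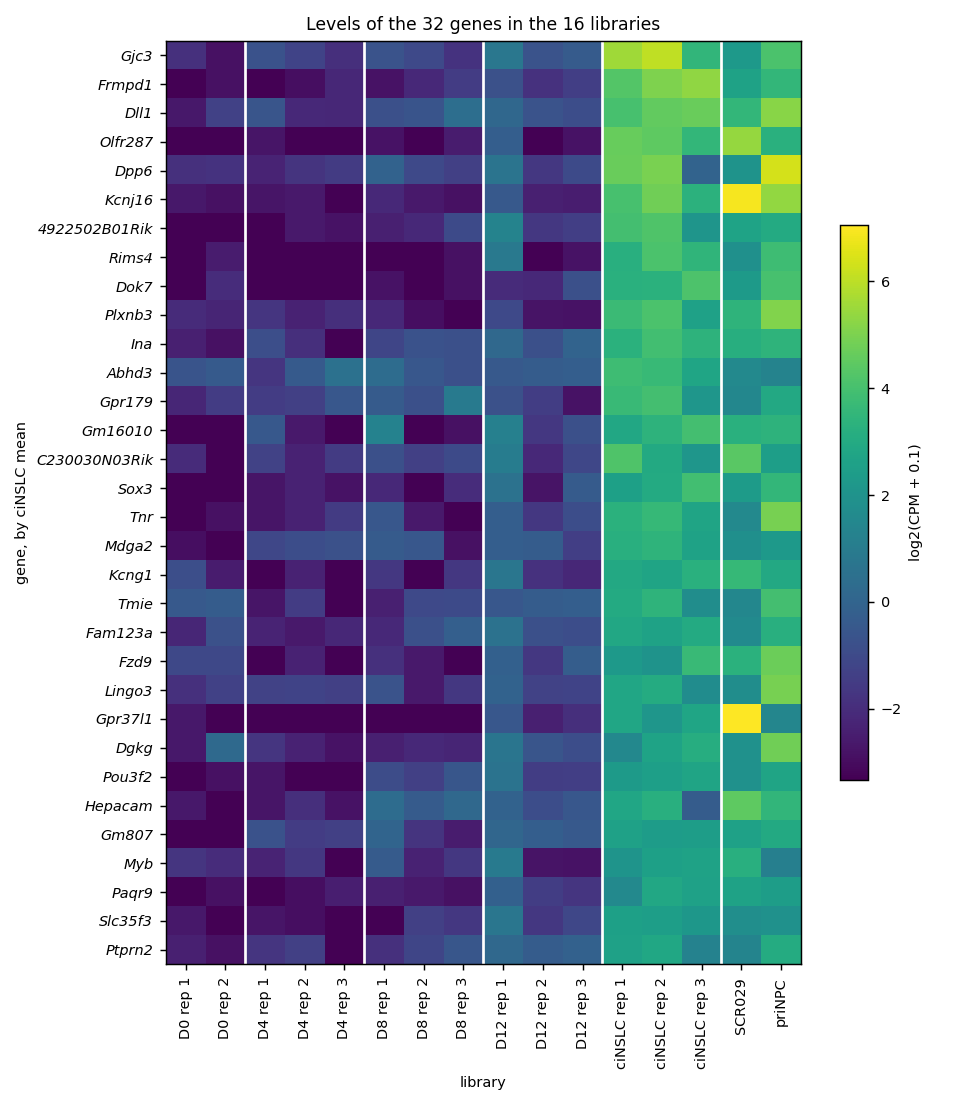
Level of each of the 32 genes (rows, ordered by the ciNSLC mean) in each of the 16 libraries (columns, white lines between groups), as log2(CPM + 0.1) in colour. The left 11 columns are dark for most genes, the first D12 library is lighter than its neighbours, and the ciNSLC and control columns are bright, with Dpp6 and Hepacam dark in the third ciNSLC library.

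The 32 genes together were near the detection limit in fibroblasts. Their median level was 0.0579 and 0.0374 CPM in the D0 libraries, 0.0772, 0.0966 and 0.0407 CPM at D4, and 0.196, 0.129 and 0.221 CPM at D8. At D12 it was 0.977, 0.221 and 0.381 CPM, and in ciNSLC 8.67, 10.0 and 6.63 CPM. SCR029 had a median of 5.5 CPM and priNPC of 10.3 CPM. The first D12 library was above the other day libraries, and every line and control library was above it.

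No count at all was found for 11 and 10 of the 32 genes in the D0 libraries, for 8, 5 and 14 at D4, for 3, 7 and 4 at D8, and for 0, 2 and 0 at D12. A level of 1 CPM or more was reached by 0 and 1 of them at D0, by 0, 0 and 1 at D4, by 3, 0 and 3 at D8, and by 15, 0 and 0 at D12. In ciNSLC 32, 32 and 30 genes reached it. The words "first on in the lines" therefore hold for the group means, and 15 genes had passed 1 CPM in 1 of the 3 D12 libraries. The ciNSLC mean was between 6.0 and 96.1 times the D12 mean, with a median of 13.2 times.

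Before D12, few values passed 1 CPM. At D8 these were Gm16010 at 2.3 CPM, Abhd3 at 1.17 CPM and Hepacam at 1.17 CPM in the first library, and Gpr179 at 1.77 CPM, Dll1 at 1.25 CPM and Hepacam at 1.03 CPM in the third. Abhd3 at 1.38 CPM in the third D4 library and Dgkg at 1.05 CPM in the second D0 library were the others. Each was a value of 1 library, except that Hepacam passed in 2 of the 3 D8 libraries and stood at 0.678 CPM in the other. Gpr37l1, at the other end, had no count in any D4 or D8 library, and Rims4 had none at D4 and in 2 of the D8 libraries.

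Per kilobase of exon, the scale on which genes can be compared, ciNSLC levels ran from 0.989 to 20.5 CPM per kb with a median of 2.63. The medians were 2.1 CPM per kb in SCR029 and 3.83 in priNPC. Mdga2 was highest in the lines at 20.5 CPM per kb, but its feature in the table covers just 423 bases of exon. Next stood the gap junction gene Gjc3 with 11.8, 4922502B01Rik with 9.01 and Olfr287 with 7.92 CPM per kb. The genes were spread over 17 chromosomes, and no 2 of them started within 1 Mb of each other. Their median exon length was 3380 bases, beside 3310 bases over all genes tested.

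Transcription factors were represented by Sox3, Pou3f2 and Myb. Sox3 (ENSMUSG00000045179, chromosome X, 58144545 to 58146605, mm9), a factor of neural progenitors, had no count in either D0 library. It stood at 0.0515, 0.0966 and 0.0407 CPM at D4, at 0.13, 0 and 0.148 CPM at D8 and at 1.42, 0.0442 and 0.681 CPM at D12. In ciNSLC it was at 5.79, 8.01 and 14.9 CPM, in SCR029 at 5.06 CPM and in priNPC at 11.4 CPM. The D12 libraries differed widely from each other, and the line libraries lay above SCR029 and on either side of priNPC.

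Pou3f2 (ENSMUSG00000052621, chromosome 4, 22413791 to 22415480, mm9) encodes Brn2, a POU factor of neural progenitors and upper-layer cortical neurons. It had 0 and 0.0374 CPM at D0, 0.0515, 0 and 0 CPM at D4, 0.435, 0.291 and 0.59 CPM at D8, and 1.46, 0.265 and 0.28 CPM at D12. In ciNSLC it was at 4.94, 5.66 and 6.55 CPM, between SCR029 at 3.71 CPM and priNPC at 6.49 CPM for 2 of the 3 libraries. All D8 and D12 libraries were above all D0 and D4 libraries. The oncogene Myb, a factor of dividing progenitors, was at 1.78 CPM in the first D12 library and at 0.0442 and 0.0401 CPM in the others of that day, and at 4.08, 5.87 and 6.17 CPM in ciNSLC.

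Signalling genes included a Notch ligand and a Wnt receptor. Dll1 (ENSMUSG00000014773, chromosome 17, 15504318 to 15513836, mm9), the Delta ligand by which progenitors signal to their neighbours, was at 0.0579 and 0.3 CPM at D0, 0.566, 0.129 and 0.122 CPM at D4, 0.478, 0.549 and 1.25 CPM at D8, and 0.995, 0.53 and 0.441 CPM at D12. Its ciNSLC levels were 16.1, 23.1 and 25.4 CPM, between 11.6 CPM in SCR029 and 37.2 CPM in priNPC. Among the days Dll1 was highest in a D8 library, so its day 8 and day 12 values overlapped. The Wnt receptor gene Fzd9 was at 4.58, 3.94 and 12.9 CPM in ciNSLC, 9.74 CPM in SCR029 and 26.3 CPM in priNPC. The lipid kinase gene Dgkg, which removes the second messenger diacylglycerol, was at 2.74, 6.36 and 8.62 CPM in ciNSLC and 27.9 CPM in priNPC.

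Of the 3 glial genes in the lists, Gjc3, Hepacam and Gpr37l1, the first 2 varied most between the line libraries. Gjc3 (ENSMUSG00000056966, chromosome 5, 138395037 to 138404187, mm9), a connexin of myelinating glia, was at 47, 65.7 and 11.2 CPM in ciNSLC, 4.64 CPM in SCR029 and 17 CPM in priNPC. Hepacam, an adhesion protein of astrocytes, was at 6.93, 9.33 and 0.71 CPM in ciNSLC, with 22.3 CPM in SCR029 and 11.3 CPM in priNPC. The highest ciNSLC library was 5.87 times the lowest for Gjc3 and 13.1 times for Hepacam, with the third library lowest for both, beside 1.63 times for Gpr37l1, whose second library was the lowest.

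Gpr37l1, a receptor of astrocytes, set the controls apart: 132 CPM in SCR029 and 2.63 CPM in priNPC, a ratio of 50.4 with 1 library on each side. The lines, at 6.96, 4.28 and 6.71 CPM, lay between them. Tnr, the matrix protein tenascin R of oligodendrocyte precursors and perineuronal nets, was at 9.66, 12.2 and 6.6 CPM in ciNSLC, 2.82 CPM in SCR029 and 30.1 CPM in priNPC.

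Several members act in membrane excitability or at synapses by their known roles. Of these Kcnj16 and Kcng1 stood in the ion channel list, and Dpp6 and Rims4 in none. Dpp6, an auxiliary subunit of potassium channels of the Kv4 type in neurons, had the widest spread among the lines: 25.2, 31.1 and 0.873 CPM, a ratio of 35.6 between the highest and the lowest. In priNPC it was at 82.2 CPM and in SCR029 at 3.92 CPM. Kcnj16, an inwardly rectifying potassium channel of astrocytes and kidney, was at 16.3, 27.6 and 10.0 CPM in ciNSLC, below 120 CPM in SCR029 and 41.1 CPM in priNPC. The modulatory potassium channel subunit Kcng1 was at 7.57, 6.49 and 9.55 CPM in ciNSLC, 12.2 CPM in SCR029 and 7.53 CPM in priNPC.

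Rims4, of the family of presynaptic active-zone proteins, was at 1.74 CPM in the first D12 library against 0 and 0.0401 CPM in the others. Its ciNSLC levels of 9.27, 17 and 11 CPM were all above the 3.58 CPM of SCR029 and lay on either side of the 14 CPM of priNPC. Ina, a neuronal intermediate filament, was at 9.7, 14.7 and 10.2 CPM in ciNSLC, close to 8.98 CPM in SCR029 and 10.5 CPM in priNPC. Dok7, an activator of the muscle kinase MuSK, was at 9.45, 9.81 and 17.7 CPM in ciNSLC. It was 1 of 3 members whose level in the first D12 library, here 0.142 CPM, was not the highest of that day.

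The guidance list held 1 member and the neural adhesion list 1. Plxnb3, a plexin receptor for semaphorins, was at 13.2, 17.1 and 5.95 CPM in ciNSLC, 10.7 CPM in SCR029 and 33.9 CPM in priNPC. Mdga2, a regulator of neuroligins at synapses, was at 9.31, 10.5 and 6.17 CPM in ciNSLC, above both SCR029 at 3.46 CPM and priNPC at 4.66 CPM. Lingo3, a leucine-rich repeat membrane protein, was at 6.86, 8.22 and 3.17 CPM in ciNSLC, 3.33 CPM in SCR029 and 30.5 CPM in priNPC. Ptprn2, a receptor-type phosphatase protein of secretory granules, was at 5.93, 7.18 and 2.35 CPM in ciNSLC.

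Among the genes in none of the lists, Frmpd1 (ENSMUSG00000035615, chromosome 4, 45197747 to 45298808, mm9), a scaffold protein with FERM and PDZ domains, had the highest ratio of ciNSLC to D12 means. It stood at 0 and 0.0374 CPM at D0, 0, 0.0322 and 0.122 CPM at D4, 0.0435, 0.129 and 0.258 CPM at D8, and 0.497, 0.177 and 0.28 CPM at D12, then at 19.2, 33 and 39.5 CPM in ciNSLC. SCR029 had 6.15 CPM and priNPC 11.7 CPM, both below all 3 line libraries. Abhd3, a lipase that acts on phospholipids, was also above both controls, at 14.2, 12.4 and 6.66 CPM against 2.82 CPM in SCR029 and 2.39 CPM in priNPC. Among the days it stood at 0.55 and 0.674 CPM at D0, 0.206, 0.676 and 1.38 CPM at D4, 1.17, 0.613 and 0.48 CPM at D8, and 0.639, 0.706 and 0.761 CPM at D12, so that all day groups overlapped.

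Tmie, a part of the hair cell transduction channel, was at 0.637 and 0.711 CPM at D0, 0.0515, 0.258 and 0 CPM at D4, 0.0869, 0.387 and 0.406 CPM at D8, and 0.604, 0.706 and 0.761 CPM at D12. All D4 and D8 libraries were thus below all D0 and D12 libraries, which overlapped each other. Its log2 change from D4 to D12 was 2.57, which did not pass the edgeR test over all genes (adjusted p = 0.11). In ciNSLC Tmie was at 8.06, 10.7 and 3.33 CPM. Slc35f3, a member of a family of nucleotide sugar transporters, was at 5.83, 5.53 and 4.37 CPM in ciNSLC, above both controls. The retinal receptor gene Gpr179 was at 13.1, 15.5 and 4.31 CPM in ciNSLC. Fam123a (Amer2), a regulator of Wnt signalling, was at 7.39, 6.15 and 8.02 CPM and the membrane receptor gene Paqr9 at 2.81, 7.25 and 6.06 CPM.

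Several members share their position with another gene. In all, 12 of the 32 overlapped another entry of the table, and strand use in counting is not given in the sources used here, so reads of opposite partners cannot be told apart. C230030N03Rik lay within Arhgef4 on the same strand, which was at 57.8 CPM in ciNSLC and 10.1 CPM at D12. Gm16010 lay opposite Spsb4, which was at 29.2 CPM in ciNSLC and 4.53 CPM at D12. C230030N03Rik itself was at 18.1, 7.67 and 4.26 CPM in ciNSLC and Gm16010 at 7.35, 10.2 and 15.3 CPM. Olfr287 was at 25, 22 and 11.4 CPM, with 42 CPM in SCR029 and 9.52 CPM in priNPC. The unnamed gene 4922502B01Rik was at 15.2, 18.2 and 4.2 CPM in ciNSLC and 2.42, 0.221 and 0.28 CPM at D12. Levels of C230030N03Rik and Gm16010, and of Olfr287, which overlaps Olfr288 and belongs to a large family of similar genes, are uncertain. Gm807, with no overlap, had the narrowest range in ciNSLC, at 6.07, 5.18 and 5.29 CPM.

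Promoter sequence had no part in the choice of genes. RefSeq promoters of build GRCm38.p6, from 250 bases before to 50 bases after an annotated start, were matched for 25 of the 32 genes. The letters CAGCACC, a part of the RE1 element, were searched on either strand and were in a promoter of 6 of the 25 genes (24%), beside 8.14% of 27025 genes. The genes were Frmpd1, Dll1, Dok7, Mdga2, Lingo3 and Ptprn2. For Mdga2 the promoter is that of the RefSeq gene, and its distance from the counted feature of 423 bases was not examined. The E-box CAGCTG was in 9 of 25 (36%), beside 18.3%, and the NFI motif TGCCAA in 7 of 25 (28%), beside 16.1%. The Sox motifs ACAAAG and ACAATG were in 8 of 25 (32%), beside 31.7%. The octamer core ATGCAAA and the cyclic AMP element TGACGTC were in 1 gene each (4%), beside 5.24% and 3.6%, and TATAAA in 2 (8%), beside 15.7%. A promoter with at least 50% G and C and an observed over expected CpG ratio of at least 0.6 was found for 13 of 25 (52%), beside 36%. These are shares of letters in a window, with no test, and genes with several starts had more windows.

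Frmpd1, which had the highest ratio of lines to D12, and Plxnb3 serve to show how different the promoters were. The first had 83.3% G and C, and the second 63.7%. Capitals mark the E-boxes CAGCTG in both, the RE1 letters CAGCACC in Frmpd1, and the Sox motifs, on either strand, in Plxnb3. None of the marked motifs overlap.
Frmpd1, chr4:45184656-45184955, plus strand: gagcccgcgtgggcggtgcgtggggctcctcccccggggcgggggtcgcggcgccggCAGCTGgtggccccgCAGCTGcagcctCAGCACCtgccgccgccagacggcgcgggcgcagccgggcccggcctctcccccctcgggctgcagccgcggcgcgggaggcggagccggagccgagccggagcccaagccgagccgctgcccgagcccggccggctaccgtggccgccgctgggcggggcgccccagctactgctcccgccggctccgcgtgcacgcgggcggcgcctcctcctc
Plxnb3, chrX:73756853-73757152, plus strand: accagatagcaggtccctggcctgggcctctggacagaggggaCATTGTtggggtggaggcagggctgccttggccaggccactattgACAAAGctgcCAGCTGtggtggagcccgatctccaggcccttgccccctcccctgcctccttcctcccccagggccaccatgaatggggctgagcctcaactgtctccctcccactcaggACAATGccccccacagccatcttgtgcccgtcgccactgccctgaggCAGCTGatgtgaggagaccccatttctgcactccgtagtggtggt

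The RE1 letters of the other 5 genes are shown in capitals with their surroundings, 5′ to 3′ on the strand of the gene. In all 5 it was read as GGTGCTG, the reverse complement of CAGCACC.
Dll1, chr17:15377059-15377105, minus strand: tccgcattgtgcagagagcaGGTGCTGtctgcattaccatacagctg
Dok7, chr5:35057089-35057121, plus strand: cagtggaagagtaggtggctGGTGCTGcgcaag
Mdga2, chr12:67222726-67222772, minus strand: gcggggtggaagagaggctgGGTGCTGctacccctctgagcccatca
Lingo3, chr10:80844140-80844186, minus strand: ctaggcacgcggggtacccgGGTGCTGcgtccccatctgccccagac
Ptprn2, chr12:116485713-116485759, plus strand: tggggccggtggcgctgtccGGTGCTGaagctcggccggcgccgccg

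The D12 libraries were unlike each other. The median level as a share of the ciNSLC mean was 12.7% in the first D12 library, 2.37% in the second and 3.82% in the third, beside 0.832% and 0.629% at D0. The first was the highest of the 3 for 29 of the 32 genes (90.6%), beside 34.7% of 17680 genes tested. It was at least 3 times both others for 14 members (43.8%), beside 3.84% of genes, among them Rims4, Myb, Olfr287, Kcng1 and 4922502B01Rik. The median ratio of the first library to the mean of the others was 3.13 for the members and 0.835 for all genes.

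**Figure D2:**
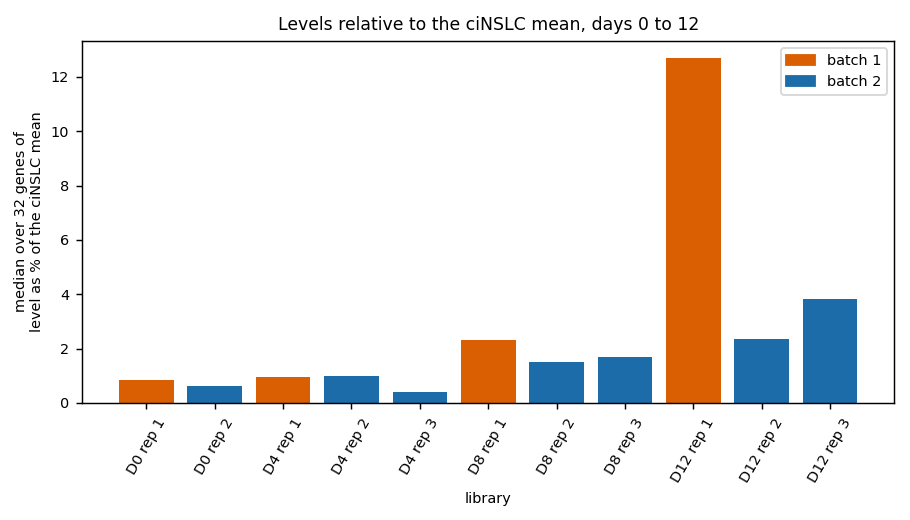
Median over the 32 genes of the level as a percentage of the ciNSLC mean (vertical axis) in each day library (horizontal axis), with batch in colour. The first D12 library stands at 12.7% and the other day libraries between 0.397% and 3.82%.

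Some other neural genes stood high in the same library, and others did not. The 9 neural progenitor markers summed to 1770 CPM in the first D12 library and to 610 and 893 CPM in the others, a sum carried by Fabp7 at 1200 CPM against 192 and 341 CPM. Of these markers 6 were highest there, Sox2 among them at 17.3 CPM against 2.47 and 4.61 CPM, whereas Nes at 280 CPM against 269 and 308 CPM, Pax6 and Prom1 were not. The 8 markers of the oligodendrocyte lineage summed to 287 CPM against 51.6 and 70.3 CPM, with 5 highest in the first library and Olig1 alone at 180 CPM against 9.67 and 23 CPM. The 7 neuron markers were lower in sum, at 24 CPM against 29.4 and 30.4 CPM. Snap25, at 9.13 CPM against 15.4 and 14.5 CPM, carried this difference. In the first library 3 neuron markers were lowest and 2 highest, Dcx among the latter at 3.45 CPM against 0.883 and 1.16 CPM. Of 6 astrocyte markers 3 were highest and 3 lowest in the first library, with Gfap at 0.142 CPM against 3.8 and 5.69 CPM. Their sum was higher there, 80.8 CPM against 38.9 and 57.9 CPM, with Slc1a2 at 50.7 CPM against 19.1 and 26.1 CPM. The 12 fibroblast markers summed to 12900 CPM against 19400 and 18200 CPM. In the first library 8 of them were lowest and 3, Pdgfrb, Col3a1 and Fbln1, were highest. The first D12 library is also the one D12 library of batch 1. The batch 1 library was also lowest in the fibroblast sum at D4, at 2610 CPM against 14500 and 13000 CPM. At D8 it was lowest as well, at 3560 CPM against 18000 and 19900 CPM. In the neural progenitor sum the batch 1 library was highest at D8, at 669 CPM against 275 and 316 CPM. At D4 it was lowest in that sum, at 144 CPM against 260 and 214 CPM. The part of cell makeup or batch in the members' levels was not tested. Without the first D12 library the mean of the other 2 D12 libraries was still the highest of the day means for 18 members (56.2%), beside 36.8% of genes.

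**Figure D3:**
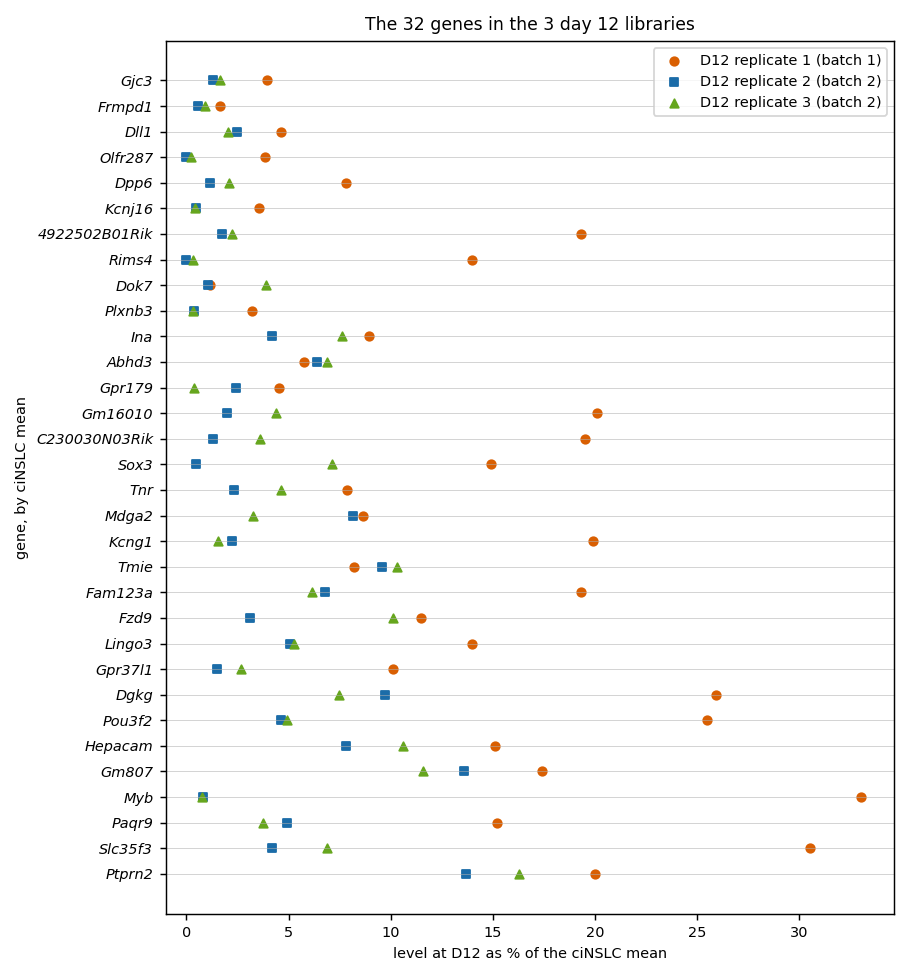
Level of each gene (vertical axis, ordered by the ciNSLC mean) in the 3 D12 libraries as a percentage of its ciNSLC mean (horizontal axis). Circles, for the first library, lie to the right of the other marks for 29 of 32 genes and reach 33% for Myb, whereas squares and triangles stay at or under 16.3%.

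Whether the genes had begun to rise under the limit by D12 was asked against D0 and against D4, since the limit was the same for these groups. The filter on low counts took in the ciNSLC libraries, in which the members are high by choice. With the filter and the fit on D12 and D0 alone 17 of the 32 members were tested and 1, Gm807, was called, beside 5.66% of 16073 genes (3.15% higher). The other 15 members did not pass the filter on these groups, so the counts over the 32 that follow are a description and support no statement on the members as a group. Against D0, 9 of the 32 rose and none fell (28.1% called), beside 10.3% of 17568 genes (5.83% higher and 4.51% lower), by the quasi-likelihood test of edgeR at a Benjamini-Hochberg adjusted p under 0.05 over all genes. These were Gm807, Pou3f2, Mdga2, 4922502B01Rik, Sox3, Paqr9, Frmpd1, Ina and Ptprn2, of which 4922502B01Rik, Frmpd1, Paqr9 and Pou3f2 were not tested in the fit on D12 and D0 alone. Ina, Mdga2, Ptprn2 and Sox3 were tested there and not called, at edgeR adjusted p of 0.077, 0.082, 0.059 and 0.17. With no filter on low counts the same 9 were called. The fitted log2 change was above 0 for 31 of 32 members, with a median of 3.14 beside 0.03 over all genes. All D12 libraries were above both D0 libraries for 19 members (59.4%), beside 24.5% of genes. The labels do not say that replicates are separate cultures, so these p-values measure the spread between libraries, which may be technical.

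Gm807, a predicted gene, had no count at D0, 0.515, 0.258 and 0.285 CPM at D4, 0.913, 0.194 and 0.0738 CPM at D8 and 0.959, 0.751 and 0.641 CPM at D12. Its level at D12 was at least 16.2-fold higher than at D0, against a floor of 3 counts over the group (adjusted p = 0.012, edgeR). All 3 D12 libraries were above all D4 libraries. Sox3 was at least 15.6-fold higher (adjusted p = 0.034, edgeR) and 4922502B01Rik at least 21.6-fold higher (adjusted p = 0.031, edgeR), also from 0 counts at D0. These bounds rest on the first D12 library, which gave 40 of the 58 D12 counts of Sox3 and 68 of the 80 of 4922502B01Rik. Without it Sox3 was at least 7.72-fold higher (adjusted p = 0.057, edgeR) and 4922502B01Rik at least 5.15-fold higher (adjusted p = 0.05, edgeR), and neither was called. For Gm807 the bound without it was 14.2-fold. In the fit on D12 and D0 alone Gm807 was called, Sox3 was tested and not called, and 4922502B01Rik was not tested.

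With 1 count at D0, the ratio of pooled D12 to pooled D0 levels was 43.7 for Pou3f2 (95% counting interval 7.51 to 1760, edgeR adjusted p = 0.027). It was 35.6 for Mdga2 (6.06 to 1440, edgeR adjusted p = 0.027), 27.5 for Paqr9 (4.61 to 1120, edgeR adjusted p = 0.035) and 20.2 for Frmpd1 (3.31 to 830, edgeR adjusted p = 0.041). Ina, from 4 counts, had a log2 change of 3.45 (SE 0.99, edgeR adjusted p = 0.044) and Ptprn2 of 3.55 (SE 1.03, edgeR adjusted p = 0.047). Without the first D12 library the ratio was 16.7 for Pou3f2 and 14.2 for Paqr9. The intervals cover counting error alone and are wide, so the sizes are known to an order of magnitude at best. The adjusted p-values come from the fit that took in ciNSLC. On D12 and D0 alone Pou3f2, Paqr9 and Frmpd1 were not tested, and Mdga2, Ina and Ptprn2 were not called.

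The levels behind these ratios were as follows. Mdga2 was at 0.0289 and 0 CPM at D0, 0.36, 0.451 and 0.489 CPM at D4, 0.695, 0.613 and 0.0369 CPM at D8, and 0.746, 0.706 and 0.28 CPM at D12. It was thus above D0 in all D4 libraries as well, and its D4 and D12 libraries overlapped. Paqr9 was at 0 and 0.0374 CPM at D0 and at 0.817, 0.265 and 0.2 CPM at D12, with 0.0815 CPM as its highest value at D4 and 0.0869 CPM at D8. Ina was at 0.0868 and 0.0374 CPM at D0, 0.463, 0.161 and 0 CPM at D4 and 1.03, 0.486 and 0.881 CPM at D12. Ptprn2 was at 0.0868 and 0.0374 CPM at D0, 0.206, 0.29 and 0 CPM at D4 and 1.03, 0.706 and 0.841 CPM at D12. For Paqr9, Ina and Ptprn2 all D12 libraries were above all D0 and D4 libraries.

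The calls against D0 depended on a few libraries. Without either of the D0 libraries, when the lone one is assumed to vary like the other groups, 0 members were called. Without the first, the second or the third D12 library 3, 6 and 5 were called, beside 2207, 1072 and 1002 of all genes. The 3 were Gm807, Mdga2 and Pou3f2. A term for batch gave 14 members, beside 2787 of all genes, and the replicate block 11, beside 2125. The fit reported above called 1816 genes. Batch 2 alone, a setting added after seeing the data, leaves 1 D0 library. In it the log2 change was 7.06 for Gm807, 6.56 for Mdga2, 6.16 for Sox3, 5.61 for 4922502B01Rik, 4.04 for Ptprn2 and 3.87 for Ina. It was 2.56 for Pou3f2, 2.33 for Paqr9 and 2.32 for Frmpd1, below the 4.96, 4.29 and 3.86 of the fit reported above. DESeq2 called 15 members, beside 2937 genes, and limma voom called Gm807, beside 1589 genes. Abhd3, Tmie and Plxnb3 had log2 changes of 0.07 (SE 0.64), -0.10 (SE 0.78) and 0.28 (SE 1.04). The part of the myeloid cells of the second D0 library was not tested.

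Against D4, with 3 libraries on each side, 1 of 32 members rose and none fell (3.12% called), beside 3.82% of genes (2.54% higher and 1.28% lower), a share near that of all genes. With the filter and the fit on D12 and D4 alone 12 members were tested and 0 called by edgeR, 5 of them with an unadjusted p under 0.05, beside 3.82% of 15475 genes called (2.13% higher). The called member, not tested in that fit, was Pou3f2, whose log2 change was 5.25 (SE 1.14, edgeR adjusted p = 0.024) and whose pooled ratio was 53.5 (95% counting interval 9.2 to 2150, from 1 count at D4; 20.5 without the first D12 library). The other 20 members did not pass the filter on D12 and D4 alone. Counts over the 32 against D4 are therefore a description and support no statement on the members as a group. An unadjusted p under 0.05 was found for 19 members (59.4%), beside 16.7% of genes. The log2 change was above 0 for 30 of 32, with a median of 2.55 beside 0.03 for all genes, and all D12 libraries were above all D4 libraries for 18 members (56.2%), beside 12.6% of genes. DESeq2 called 16 members beside 1588 of all genes, a batch term gave 5 beside 1350, and batch 2 alone gave 6 beside 2891. The fit reported above called 671 genes. Without the second D4 library, the third D4 library or the first D12 library 0 members were called, beside 201, 186 and 527 genes.

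The levels in the lines and in the cortical controls were among those that chose the members, with unequal limits of 5 CPM for the line mean and 2 CPM for each control, so their comparison is a description and nothing is read from its counts. By the same edgeR test no member was called (0 of 32), beside 1.41% of 17680 genes (0.752% higher and 0.662% lower). The controls are different cells whose difference enters the spread. An unadjusted p under 0.05 was found for 5 members (15.6%), beside 13.8% of genes. DESeq2 called Abhd3 and Frmpd1, beside 992 of all genes, and limma voom called Frmpd1, beside 231.

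The members with the lowest p were these. Abhd3 had a log2 difference between lines and controls of 2.07 (SE 0.64), Frmpd1 of 1.77 (SE 0.62) and Gjc3 of 1.99 (SE 0.82), whereas Kcnj16 had -2.22 (SE 0.69) and Gpr37l1 -3.61 (SE 1.2). For Gpr37l1 the sign depends on the control: the difference was -4.57 against SCR029 alone and 1.32 against priNPC alone.

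**Figure D4:**
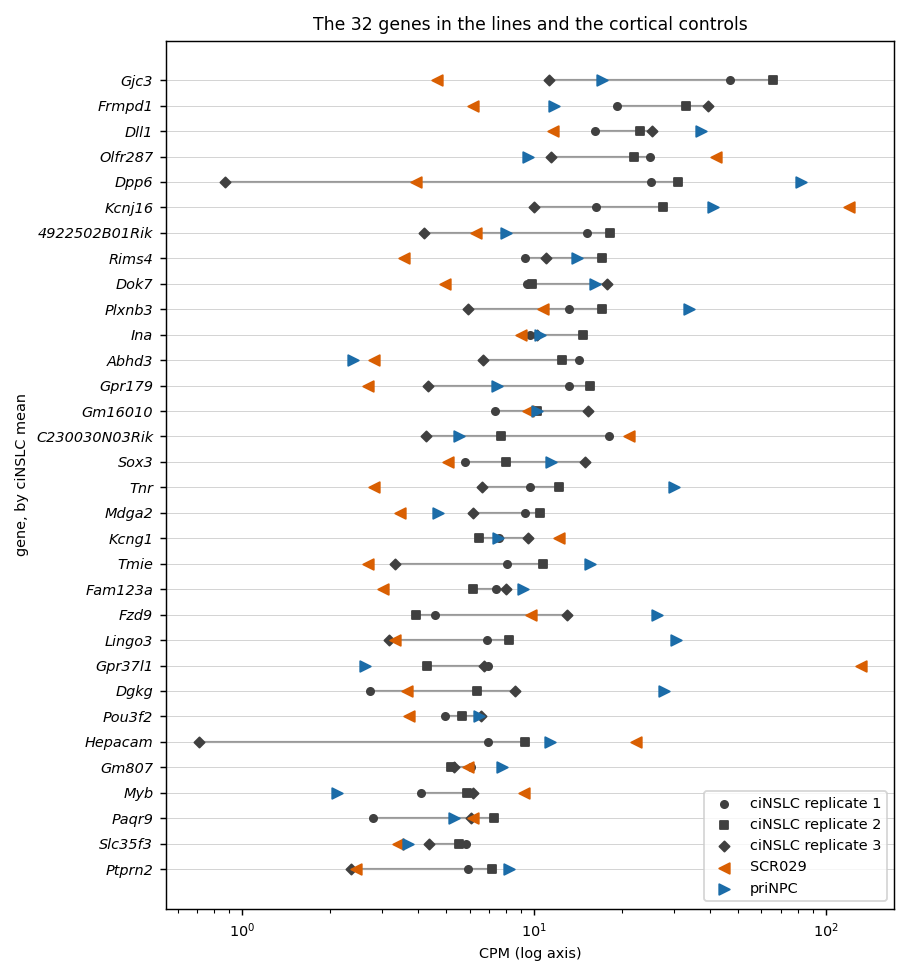
Levels in CPM on a log axis (horizontal) of each of the 32 genes (vertical axis, ordered by the ciNSLC mean) in the 3 ciNSLC libraries (dark marks joined by a line), SCR029 (left-pointing triangles) and priNPC (right-pointing triangles). The third ciNSLC library stands apart for Dpp6 at 0.873 CPM and Hepacam at 0.71 CPM, and SCR029 for Gpr37l1 at 132 CPM and Kcnj16 at 120 CPM.

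The controls were often far apart from each other. All 3 ciNSLC libraries were above both controls for 4 members (Frmpd1, Abhd3, Mdga2 and Slc35f3; 12.5%, beside 13.4% of genes), below both for 2 (Kcnj16 and Hepacam; 6.25%, beside 13.2%) and between the controls for 7 (21.9%, beside 15.1%). The controls differed at least 5 times for 6 members (18.8%, beside 14.6% of genes) and less than 2 times for 12 (37.5%, beside 60.3%). Besides Gpr37l1, SCR029 was the higher by 4.41 times for Olfr287 and by 4.35 times for Myb. In the other direction priNPC was the higher by 21 times for Dpp6, by 10.7 times for Tnr and by 9.15 times for Lingo3, with 1 library on each side. In all priNPC was above SCR029 for 23 members (71.9%), beside 59.2% of genes.

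Within the lines, the highest library was less than 2 times the lowest for 13 members (40.6%, beside 60.5% of genes) and at least 3 times for 10 (31.2%, beside 22.6%). The third library was the lowest for 16 members (50%, beside 31.5%), Gjc3, Dpp6, Hepacam and Gpr179 among them, and the highest for 11 (34.4%, beside 39.1%), Sox3 and Fzd9 among them. Gm807, Fam123a, Pou3f2 and Slc35f3 varied least, by 1.17, 1.31, 1.33 and 1.33 times. The third library was also lowest in 5 of 6 astrocyte markers, with a sum of 132 CPM against 1020 and 1060 CPM that was carried by Slc1a2 at 91.6 CPM against 847 and 885 CPM. Aldh1l1 was at 13.6 CPM there against 117 and 119 CPM and Gfap at 0.109 CPM against 25 and 23 CPM, but Aqp4 at 14.9 CPM against 16 and 23.5 CPM and S100b at 12 CPM against 14 and 13.1 CPM differed less, and Gjb6 had no count in any of the 3. The third library held more of the fibroblast markers in sum, 427 CPM against 87.5 and 121 CPM, which Prrx1 and Thy1 carried. Prrx1 was at 190 CPM against 48.5 and 45.5 CPM and Thy1 at 141 CPM against 6.46 and 7.05 CPM. Of the 12 markers 6 were highest there. Others lay between the other libraries, such as Col1a1 at 11.8 CPM against 4.05 and 14.5 CPM. The part of these differences, and of the different names in the labels of the lines, in the members' spread was not tested.

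The members were a small part of the genes on in the lines and both controls. Of all 9978 such genes, 9946 had reached 1 CPM in at least 1 of the day means. In each neural list 1 or 2 such genes were members, a larger share than over all genes, in small lists. The counts for the lists are a description beside the share over all genes. Of 66 neural transcription factor genes, 24 were on in the lines and both controls, and 22 of these had reached 1 CPM in at least 1 of the day means, leaving Sox3 and Pou3f2. For astroglia and radial glia 23 of 25 such genes had reached it, for the oligodendrocyte lineage 16 of 17, for neurons 16 of 17, for neural adhesion 38 of 39, for the Notch pathway 12 of 13, for ion channels 39 of 41 and for guidance 42 of 43. No transmitter receptor (15 on) and no protocadherin (21 on) was a member. With 32 members among 9978 such genes, this is not read as a trait of those lists.

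By D12 the lists differed in how many genes had changed against D0 in the same edgeR test, beside 5.83% of all genes that rose and 4.51% that fell. The filter on low counts took in the ciNSLC libraries, so genes low in the day groups could enter through the lines. Some lists also hold members. The counts and medians are therefore a description and support no statement on a list as a group. Among neural transcription factors 16 of 48 tested rose and 4 fell, among astroglial genes 16 of 32 rose and 1 fell, and among neural adhesion genes 24 of 69 rose and 5 fell. Of oligodendrocyte lineage genes 10 of 33 rose and 3 fell, of neuronal genes 11 of 41 rose and 3 fell, and of Notch pathway genes 2 of 21 rose and 1 fell. Guidance genes rose and fell in equal number, 11 each of 66, as did protocadherins, 2 each of 35. Of ion channel genes 18 of 125 rose and 4 fell, and of transmitter receptor genes 17 of 68 rose and 3 fell. Solute carrier genes, with 20 of 277 higher and 17 lower, and homeobox genes, with 7 of 68 higher and 8 lower, moved in both directions. The median log2 changes were 2.59 for the neural transcription factors, 2.96 for the astroglial genes, 0.38 for the Notch pathway and 0.27 for guidance, beside 0.03 for all genes.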

How the data were processed

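Total RNA of 16 libraries was amplified and sequenced, per the labels. TopHat2 2.0.13, the mm9 genome, featureCounts of Subread and edgeR are named in the submitters' processing notes. The deposited table holds raw counts per gene, per the file headers, and the summed exon length of each gene in bases, another unit used for levels per kb. The 48 deposited columns of normalized values were not used.

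CPM was computed after removing mt-Rnr1 and mt-Rnr2. Tests used edgeR 4.0.16 in R 4.3.3 on the counts: the default expression filter, TMM (trimmed mean of M values) scaling, a robust quasi-likelihood fit on group, and Benjamini-Hochberg adjustment over all genes tested. Comparisons between days used the 14 libraries of D0 to D12 and ciNSLC (17568 genes), and the comparison with the controls used all 16 (17680 genes), with SCR029 and priNPC coded as 1 group. All 32 members passed this filter, and 17 and 12 of them passed it for D12 and D0 alone and for D12 and D4 alone. The members, gene lists and tests were chosen with earlier results of these data known. Among members, the genes named were the highest in each list and in the lines, those at the limits, those called or lowest in p, and those most and least variable; further members are named to cover the set.

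Replicate number 1 marks batch 1 in the labels, so same-numbered libraries are paired by batch. Deviations from the group means of same-numbered D12 and D4 libraries correlated at 0.326, 0.244 and 0.202, and of D12 and D0 libraries at 0.123. The differently numbered batch 2 libraries of D12 and D4 correlated as well, at 0.259 and 0.194, so the pairing is by batch, not by the numbers 2 and 3. Alternatives were other scalings, filters and tools (DESeq2 1.42.0, limma 3.58.1), a batch term, a replicate block, other limits, 1 control at a time and each library left out. Intervals and floors cover counting error alone, because without molecular identifiers copies of 1 molecule cannot be recognised. Promoters came from RefSeq.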

Additional observations from a re-analysis of the deposited data

How the results depend on the processing

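The number of genes that met the rule was 32. It was 30 with TMM-scaled CPM (29 shared), 20 with the mitochondrial rRNA genes kept (12 shared), 9 and 102 with day means under 0.5 and 2 CPM, 13 with every day library under 1 CPM, 17 with every ciNSLC library at 5 CPM, 15 with a ciNSLC mean of 10 CPM, and 27 to 56 with 1 library left out. The 56, which include the 32, came without the first D12 library. Members called for D12 against D0, 9 as reported beside 1816 of all genes, were 15 by DESeq2 (2937 genes) and 1 by limma voom (1589 genes). They were 14 with a batch term (2787 genes) and 1 with only the groups compared (17 members tested, 909 genes called). With 1 D12 library left out they were 3 to 6 (1002 to 2207 genes). For D12 against D4, 1 as reported beside 671 genes, they were 4 with no filter (564 genes) and 2 with a filter at 1 CPM in 2 libraries (707 genes). They were 16 by DESeq2 (1588 genes), 5 with a batch term (1350 genes) and 6 in batch 2 alone (2891 genes). With only the groups compared they were 0 (12 members tested, 591 genes called), and with 1 library left out 0 to 2 (186 to 527 genes). For ciNSLC against the controls, 0 as reported beside 250 genes, they were 2 by DESeq2 (992 genes) and 1 by limma voom (231 genes). In the fits with only the groups compared, 4 of the 9 members called against D0, and Pou3f2 against D4, were not tested, and another 4 of the 9 were tested and lost the call. The cause of the other differences was not tested. The levels of the lines and controls chose the members, so nothing is read from the last of these comparisons.

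With the replicate block 11 members were called for D12 against D0, beside 2125 of all genes, and 1 for D12 against D4, beside 1081. The block added C230030N03Rik, Gjc3 and Hepacam and lost Frmpd1 (edgeR adjusted p = 0.054, range over its alternatives 0.033 to 0.26). The log2 change of Gpr37l1 between ciNSLC and the controls turned from -3.61 to 1.32 with priNPC as the only control and to 1.13 in batch 2 alone. The settings with batch 2 alone were chosen after seeing the data. Levels under about 0.1 CPM rest on a few counts, which limits the statements on D0 and D4.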

Other observations

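A further 25 genes met the day and line limits but were under 2 CPM in a control. The genes named here were chosen after their values were seen. Hs3st2, a heparan sulfate sulfotransferase gene, was at 31.9, 30.7 and 24.2 CPM in ciNSLC, 1.73 CPM in SCR029 and 0.637 CPM in priNPC. Glycam1, which encodes a mucin of lymph node vessels and milk, was at 82.6, 60.6 and 1.04 CPM in ciNSLC, while Pax7, a factor of dorsal neural tube and muscle stem cells, was at 0.604, 0.276 and 66.2 CPM. The ciNSLC libraries thus differed from each other in both genes, and in opposite directions. Myt1 and Gpr37, genes of oligodendrocyte development, had ciNSLC means of 11.3 and 5.4 CPM and stood at 14.7 and 8.4 CPM in priNPC and 0.716 and 0.0843 CPM in SCR029.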
